A study of Mus musculus with 18 samples.

Results

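The 10 genes described here, Sncg, Npr3, Prr32, Fads3, Slc6a13, Tmem45b, Nek6, Prrx1, Tnc and Sucnr1, were lower in the brown adipose tissue (BAT) of caspase-6 knockout mice and not lower in epididymal white adipose tissue (eWAT). They were selected on these libraries for a fall in BAT and not in the white depots, from 25124 genes in each deposited table. The knockout values given below therefore describe the choice in every depot and carry no test. The contrast that chose them did not compare WT levels between depots, and it used neither related genes, neighbours nor promoter sequences. All 10 genes passed the filter on low counts in every depot.

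The libraries came from male mice on a C57BL/6J background that were put on a high fat diet (HFD) at 10 to 14 weeks of age and kept on it for 12 weeks. Fat supplied 60% of the calories, and the mice were fasted for 10 h before tissue collection. Wild-type (WT) mice and mice lacking caspase-6 in every tissue (C6KO) were bred from heterozygous parents, and both genotypes ate the same diet, so no group here was on chow. Poly(A) RNA of BAT, eWAT and inguinal white adipose tissue (iWAT) was sequenced in 18 libraries, 3 for each combination of genotype and depot. The labels number the libraries within each group but do not tie a number to an animal, so p-values measure the spread between these libraries.

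Adipose depots differ in the adipocytes they hold. Brown adipocytes burn fat to make heat through UCP1, whereas white adipocytes store it and secrete hormones such as leptin. On an HFD, BAT takes in more fat and the tissue whitens, and genes typical of white adipocytes become measurable in it. The 10 genes have separate roles. NPR3 is the clearance receptor that removes natriuretic peptides, which are lipolytic hormones from the heart, without making cGMP. SUCNR1 is the cell surface receptor for succinate, and SLC6A13 is a plasma membrane carrier of GABA and related solutes. FADS3 is a member of the fatty acid desaturase family, NEK6 is a mitotic protein kinase, PRRX1 is a homeobox transcription factor of mesenchymal cells, and tenascin C (TNC) is a glycoprotein of the extracellular matrix. SNCG is gamma-synuclein, a small soluble protein of peripheral neurons and white adipocytes. TMEM45B is a transmembrane protein and PRR32 a proline-rich protein.

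Promoters are shown for 4 of the 10 genes. Sncg and Fads3 had the highest correlation of any pair of the 10 genes, and Prr32 and Sucnr1 were the 2 genes called higher in C6KO eWAT. Each window runs from 250 bases before to 50 bases after the start of the counted transcript, in RefSeq on GRCm38.p6, the assembly that mm10 names, and capitals mark the motifs searched. The Sncg window lies on the minus strand at chr14:34374620-34374919, that of Fads3 on the plus strand at chr19:10041298-10041597, that of Prr32 on the plus strand at chrX:45090654-45090953 and that of Sucnr1 on the plus strand at chr3:60081619-60081918.
Sncg: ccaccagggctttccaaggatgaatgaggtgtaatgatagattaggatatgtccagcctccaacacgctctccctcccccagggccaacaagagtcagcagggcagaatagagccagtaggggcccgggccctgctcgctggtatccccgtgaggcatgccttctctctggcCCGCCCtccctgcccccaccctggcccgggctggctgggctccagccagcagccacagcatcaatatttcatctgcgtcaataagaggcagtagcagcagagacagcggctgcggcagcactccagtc
Fads3: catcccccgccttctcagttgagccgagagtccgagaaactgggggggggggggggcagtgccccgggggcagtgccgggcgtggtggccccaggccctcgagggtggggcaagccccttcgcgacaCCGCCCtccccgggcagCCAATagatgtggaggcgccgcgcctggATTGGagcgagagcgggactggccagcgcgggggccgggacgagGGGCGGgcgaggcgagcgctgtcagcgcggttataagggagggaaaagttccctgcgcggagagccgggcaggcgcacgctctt
Prr32: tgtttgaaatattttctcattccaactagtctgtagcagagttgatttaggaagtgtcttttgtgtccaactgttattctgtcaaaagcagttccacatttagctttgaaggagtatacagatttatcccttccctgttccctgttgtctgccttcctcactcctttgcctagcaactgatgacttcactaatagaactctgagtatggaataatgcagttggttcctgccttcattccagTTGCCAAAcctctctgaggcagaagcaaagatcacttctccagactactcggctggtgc
Sucnr1: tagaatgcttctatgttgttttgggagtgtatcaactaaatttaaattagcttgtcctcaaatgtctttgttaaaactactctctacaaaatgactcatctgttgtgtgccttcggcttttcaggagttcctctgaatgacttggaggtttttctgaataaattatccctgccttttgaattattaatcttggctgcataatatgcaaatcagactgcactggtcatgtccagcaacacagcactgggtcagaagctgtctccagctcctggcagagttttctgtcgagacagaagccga

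A promoter window around the counted start was found for 8 of the 10 genes. For Npr3 the 1 RefSeq window was set on another start, and Tmem45b had 0 windows. In all, 5 short motifs were searched on both strands, and none of their matches overlapped in the windows shown. The GC box (GGGCGG) was present in 5 of these 8 windows, those of Sncg, Fads3, Slc6a13, Nek6 and Tnc, and in 35.7% of 32851 mouse promoter windows of the same length. The CCAAT box (CCAAT) was in 2 of 8, Fads3 and Nek6, against 37.4% of all windows. The TATA box (TATAAA) was in 2 of 8, Nek6 and Tnc, against 13.6%, and the C/EBP-type motif TTGCNNAA in 1 of 8, Prr32, against 10.8%. The nuclear receptor core AGGTCA was in 0 of 8 windows and in 16.3% of all, and the Sucnr1 window held none of the 5 motifs. No motif was shared by all 8 genes.

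The libraries held 7803108 to 12428683 counts in BAT, 16717201 to 19139694 in eWAT and 16506034 to 19043523 in iWAT, so values in BAT rest on fewer reads. Levels are given as CPM, counts scaled to library size (per 1e6) with TMM factors over all 18 libraries. Casp6 itself was at 127 to 422 counts in WT and 26 to 141 in C6KO libraries, and did not overlap between genotypes within any depot. Its log2 fold change was -1.50 in BAT (SE 0.326, edgeR adjusted p = 0.0671), -1.85 in eWAT (SE 0.195, edgeR adjusted p = 0.0132) and -1.51 in iWAT (SE 0.198, edgeR adjusted p = 0.0751), so it passed the test in eWAT only and C6KO libraries kept reads of it. The BAT libraries carried Ucp1, the defining gene of brown adipocytes, at 7400 ± 3293 CPM in WT (SD, n = 3) and 6595 ± 1933 CPM in C6KO, against means of 0.527 to 2.23 CPM in the white depots. One library stood apart: the 7 skeletal muscle genes summed to 32484 CPM in BAT WT replicate 2, against 171 and 1506 in the other WT and 423 to 6411 in the C6KO libraries. In iWAT, the 13 macrophage genes summed to 1777 CPM in C6KO replicate 3 and to 557 and 576 in the other C6KO libraries. Values without these libraries are given beside the results that they moved most.

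In BAT, all 10 genes were lower in each C6KO library than in any WT library, by 2.67-fold (Prrx1) to 6.27-fold (Prr32), with a median log2 fold change of -1.87 and a median over 13595 tested genes of -0.03. A gene is called here if its edgeR adjusted p was under 0.05 and it differed 1.5-fold or more. By that rule all 10 were called lower, where 1.07% of tested genes were called lower, and all 10 did not overlap, where 12.4% of tested genes lay below WT in every C6KO library. Both counts follow from how the genes were chosen. In bulk tissue, fewer cells of a type and less RNA per cell cannot be told apart.

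The 2 receptors fell steeply. Npr3 (NM_008728, chr15:11839897-11905674, minus strand) was at 679, 817 and 656 CPM in the WT libraries of BAT and at 185, 116 and 110 CPM in the C6KO libraries. Its log2 fold change was -2.38 (SE 0.25), the highest C6KO library standing well under the lowest WT library. Sucnr1 (NM_032400, chr3:60081869-60087566, plus strand) was at 22.3, 21.5 and 9.47 CPM in WT and 1.92, 4.58 and 4.5 CPM in C6KO. The third WT library lay under the other two, and C6KO replicate 1 held only 15 reads of the gene. Its log2 fold change was -2.25 with an SE of 0.426.

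Among the other membrane proteins, Slc6a13 (NM_144512, chr6:121300288-121337721, plus strand) was at 20.4, 32.9 and 26.7 CPM in WT BAT and at 10.6, 6.56 and 7.39 CPM in C6KO BAT, a log2 fold change of -1.70 (SE 0.268). Tmem45b (NM_144936, chr9:31426196-31464238, minus strand) was at 749, 602 and 400 CPM in WT and at 199, 144 and 174 CPM in C6KO (log2 -1.75, SE 0.249). The WT libraries of Tmem45b spread more than those of Npr3 or Sncg, yet the lowest of them was above every C6KO library. The annotated exons of Tmem45b, 4724 bases, share 103 bases with 4930434F21Rik on the opposite strand. The counted transcript has 1567 exonic bases, and whether it holds the shared bases was not tested. The strand setting of the counting is not given in the sources used here.

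The 2 enzymes differed in how evenly they fell. Nek6 (NM_021606, chr2:38511697-38587490, plus strand) was at 49.5, 38.0 and 42.0 CPM in WT and 14.2, 10.2 and 11.3 CPM in C6KO BAT, with one of the smaller errors of the group (log2 -1.84, SE 0.188). Fads3 (NM_021890, chr19:10041548-10059671, plus strand) was at 102, 159 and 102 CPM in WT and 32.0, 37.8 and 33.4 CPM in C6KO (log2 -1.81, SE 0.219). Its highest WT value was in replicate 2, the library with high muscle genes, and without that library the log2 fold change was -1.53.

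Prrx1 and Tnc, the mesenchymal transcription factor and the matrix protein, both separated the genotypes. Prrx1 (NM_175686, chr1:163245119-163313650, minus strand) was at 50.4, 62.3 and 49.9 CPM in WT BAT and 21.2, 17.8 and 21.6 CPM in C6KO, the smallest change of the 10 (log2 -1.42, SE 0.175). Tnc (NM_001369211, chr4:63959789-64046936, minus strand) was at 16.8, 17.3 and 12.9 CPM in WT and 4.73, 4.76 and 3.0 CPM in C6KO (log2 -1.90, SE 0.27). The genotypes did not overlap in either gene. The annotated exons of Tnc, 7772 bases, share 176 bases with 8030451A03Rik on the opposite strand. The counted transcript has 7261 exonic bases, and whether it holds the shared bases was not tested.

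Sncg (NM_011430, chr14:34370274-34374669, minus strand) was at 161, 186 and 157 CPM in WT BAT and at 27.2, 33.0 and 25.5 CPM in C6KO BAT, a 5.84-fold difference (log2 -2.55, SE 0.175). Prr32 (NM_026841, chrX:45090904-45092790, plus strand) had the largest fold change and the fewest reads, with 52, 132 and 58 counts in WT and 14, 7 and 17 counts in C6KO. On the CPM scale that was 7.59, 12.3 and 6.39 against 1.79, 0.629 and 1.82, and the log2 fold change of -2.65 had an SE of 0.468.

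Without BAT WT replicate 2, the 10 log2 fold changes had a median of -1.84 and ran from -2.43 to -1.27, and 9 of 10 genes were still called. Leaving out C6KO replicate 1, 2 or 3 left 3, 4 and 3 of the genes called, with Sncg, Npr3 and Nek6 in each case. Calls over all genes fell as well, from 145 lower to 35, 27 and 24. The median log2 fold change of the 10 genes then stood at -1.94, -1.92 and -1.79.

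**Figure D1:**
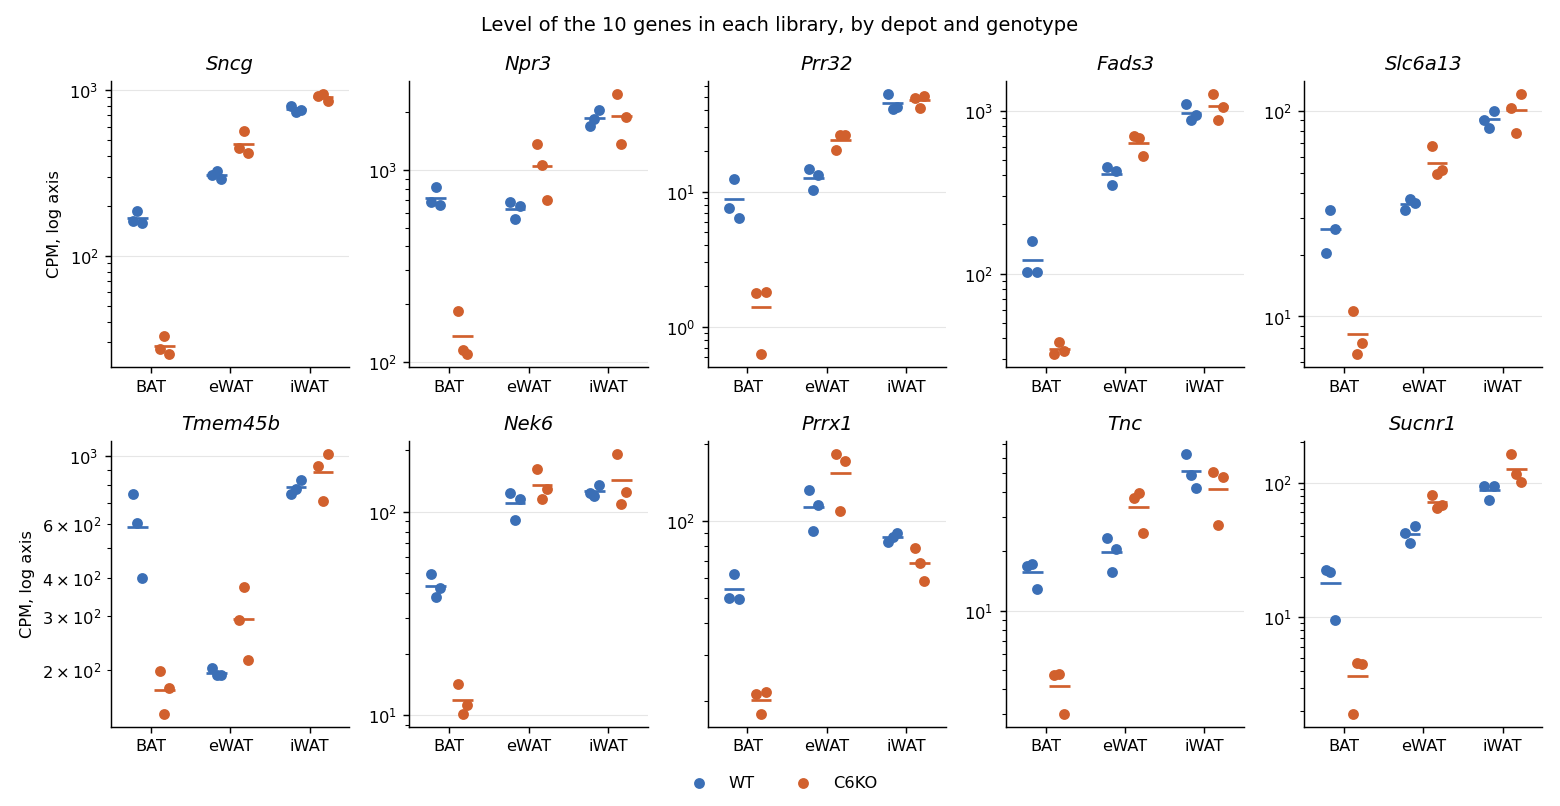
Level of each of the 10 genes (CPM, log axis) in the 18 libraries by depot, with WT in blue, C6KO in orange, points for libraries and lines for the mean of 3. In BAT each orange point lies below each blue point, in eWAT the orange points lie above the blue ones for 8 genes, and iWAT WT levels are the highest of the WT levels for 9 genes.

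In eWAT the same 10 genes all had a higher estimate in C6KO than in WT, with log2 fold changes from 0.31 (Nek6) to 0.94 (Prr32) and a median of 0.65, where the median of 14889 tested genes was -0.01. In 8 of them every C6KO library was above every WT library, and Nek6 and Prrx1 overlapped. Such separation upwards was seen in 11.6% of tested genes and downwards in 11.6%. Prr32 and Sucnr1 were called higher, where 0.537% of tested genes were called higher and 0.208% lower. Since the genes were chosen for not falling in eWAT, nothing is read from these shares.

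Prr32 was at 14.6, 10.2 and 13.2 CPM in WT eWAT and at 20.3, 26.1 and 26.1 CPM in C6KO eWAT (log2 0.94, SE 0.167). Sucnr1 was at 42.4, 35.5 and 47.5 CPM in WT and at 81.3, 64.3 and 68.6 CPM in C6KO (log2 0.78, SE 0.137). Thus the succinate receptor was 4.76-fold lower in C6KO BAT and 1.71-fold higher in C6KO eWAT, with no overlap between genotypes in either depot. Sncg was at 307, 326 and 291 CPM in WT and at 443, 561 and 418 CPM in C6KO eWAT, 1.54-fold higher and without overlap, but it did not pass the call. Npr3 spread widely in C6KO eWAT, at 1369, 1066 and 699 CPM, the last only just above the highest WT library of 685, 557 and 650 CPM.

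The remaining 6 genes had log2 fold changes in eWAT of 0.63 (SE 0.144) for Fads3, 0.67 (SE 0.14) for Slc6a13, 0.59 (SE 0.171) for Tmem45b, 0.77 (SE 0.199) for Tnc, 0.46 (SE 0.213) for Prrx1 and 0.31 (SE 0.155) for Nek6. None of these 6 was called. The number called in eWAT moved with the method: it was 8 of 10 by DESeq2, which left out only Nek6 and Prrx1, 0 with total counts as the only scaling, 3 without eWAT C6KO replicate 2, and 0 without any other single library. Over all genes, edgeR called 80 higher in eWAT, 39 with total counts, 254 without C6KO replicate 2 and 0 to 20 without any other single library. DESeq2 called 429 higher over all genes. The direction was higher for all 10 genes under each of these settings.

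In iWAT the estimates were near zero, with a median log2 fold change of 0.15 over the 10 genes and 0.03 over 14533 tested genes, and 8 estimates were higher and 2 lower in C6KO. None of the 10 was called by edgeR or by DESeq2, where edgeR called 0.00688% of tested genes higher and 0.0206% lower. The choice also asked for no fall in iWAT, so nothing is read from these counts. Sncg was at 799, 732 and 751 CPM in WT and at 919, 943 and 860 CPM in C6KO, and Sucnr1 at 94.0, 74.1 and 94.6 against 164, 115 and 101 CPM. In these 2 genes the C6KO libraries lay above all WT libraries, as did 10.9% of tested genes. Prrx1 went the other way, with 83.0, 86.9 and 89.6 CPM in WT and 78.8, 68.6 and 58.3 CPM in C6KO (log2 -0.33, SE 0.133), and 12.3% of tested genes lay below in this manner. The other 7 genes overlapped, Npr3 most widely, at 1687, 1846 and 2046 CPM in WT and 2489, 1360 and 1891 CPM in C6KO. Without iWAT C6KO replicate 3 the median was 0.04, with a range of -0.41 to 0.66, and none of the 10 was called.

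**Figure D2:**
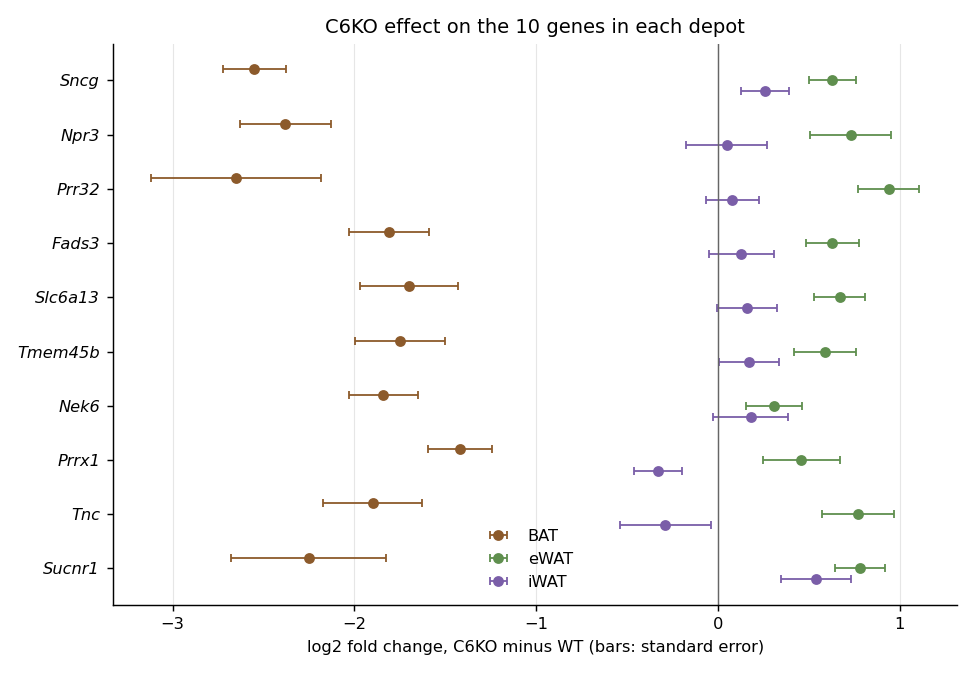
Log2 fold change of C6KO over WT for each of the 10 genes in BAT (brown), eWAT (green) and iWAT (purple), with bars for the standard error and 3 libraries per group. BAT values run from -2.65 to -1.42, eWAT values from 0.31 to 0.94 and iWAT values from -0.33 to 0.54.

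The difference of the knockout effect between depots, fitted as an interaction over 15866 genes in all 18 libraries, had a median of 2.56 on the log2 scale for eWAT minus BAT and 1.99 for iWAT minus BAT. For eWAT it was largest in Prr32 (3.62, SE 0.409), Sncg (3.18, SE 0.196) and Npr3 (3.12, SE 0.363) and smallest in Prrx1 (1.88, SE 0.262). All 10 genes passed the call rule for eWAT minus BAT, as did 0.485% of tested genes in the higher direction, and 8 of 10 passed it for iWAT minus BAT, where 0.113% did. The 2 that missed it for iWAT were Prrx1 (1.09, SE 0.261) and Tnc (1.61, SE 0.376), the genes whose iWAT estimates were negative. Without BAT WT replicate 2 the medians were 2.46 and 2.01, with 10 and 8 genes called. Both differences subtract the same BAT libraries, and the BAT and white depot libraries were all used to choose the genes.

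Another 135 genes were called lower in C6KO BAT. Their median log2 fold change was -1.72 in BAT, close to that of the 10 genes, but -0.32 in eWAT and -1.29 in iWAT, and 27 of the 134 tested in eWAT had a higher estimate there. Of these 135 genes, 26 also passed the interaction of eWAT against BAT in the higher direction, among them the leptin gene Lep, and 5 that of iWAT against BAT. The 10 genes are therefore a subset of the BAT-lowered genes that pass the eWAT interaction, and were not the only ones. The 135 genes were also lower in WT BAT than in WT eWAT by a median log2 of -3.13, against -0.69 for the 10 genes. Against WT iWAT the values were close, with a median log2 of -1.57 and 115 of the 135 called lower in WT BAT, beside -1.74 and 9 of the 10 genes.

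The WT levels of the 10 genes placed most of them highest in iWAT. These comparisons were tested with edgeR on all 15866 genes of the 18-library fit, but the WT libraries of each depot had also entered the knockout contrasts behind the choice of the genes, so these tests are not independent of it. In WT BAT, 9 of the 10 were called lower than in WT iWAT, as were 18.7% of tested genes, with a median log2 difference of -1.74 against 0.01 for all genes. Against WT eWAT, 5 were called lower in BAT, where 23.6% of tested genes were, and 1 was called higher, where 25.0% were. Between the white depots, 8 of 10 were called lower in eWAT than in iWAT, where 12.9% of tested genes were.

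Fads3 had the steepest gradient, with mean levels of 121 ± 32.7 CPM in WT BAT, 411 ± 52.7 in WT eWAT and 974 ± 114 in WT iWAT (SD, n = 3). Its level in BAT was 8.05-fold lower than in iWAT (adjusted p = 7.71e-09 by edgeR) and 3.40-fold lower than in eWAT (adjusted p = 7.95e-07), and eWAT was 2.37-fold lower than iWAT (adjusted p = 0.00015). Sncg followed the same order at 168 ± 15.8, 308 ± 17.7 and 761 ± 34.3 CPM, and so did Sucnr1 at 17.8 ± 7.2, 41.8 ± 6.03 and 87.6 ± 11.7 CPM. For both, every step between depots passed the test, the weakest being Sucnr1 in eWAT against iWAT (2.09-fold, edgeR adjusted p = 0.00834).

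Npr3, Prr32, Slc6a13 and Tnc were not separated by the test between WT BAT and eWAT and were higher in iWAT. Npr3 was at 718 ± 87.1 CPM in WT BAT and 630 ± 66.1 in WT eWAT (log2 difference 0.19, SE 0.25, edgeR adjusted p = 0.544) and at 1860 ± 180 in WT iWAT. Prr32 in BAT and eWAT differed by a log2 of -0.52 (SE 0.257), Slc6a13 by -0.40 (SE 0.2) and Tnc by -0.35 (SE 0.255), each with overlapping libraries. In iWAT these 4 genes were 2.59-fold to 5.09-fold above WT BAT, with edgeR adjusted p from 1.95e-06 to 0.000328.

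Tmem45b, Nek6 and Prrx1 departed from that order. Tmem45b was higher in WT BAT (584 ± 175 CPM) than in WT eWAT (195 ± 6.32 CPM), 2.99-fold with an edgeR adjusted p of 1.21e-05, and its difference from iWAT (787 ± 40.3 CPM) did not pass the test (log2 -0.43, SE 0.217, adjusted p = 0.112). Nek6 was 2.55-fold lower in BAT than in eWAT (edgeR adjusted p = 2.35e-05), while eWAT and iWAT, at 110 ± 17.1 and 126 ± 8.77 CPM, were not separated by the test (log2 -0.20, SE 0.196, adjusted p = 0.455). Prrx1 was the only one of the 10 whose mean was highest in eWAT, at 113 ± 20.5 CPM against 86.5 ± 3.31 in iWAT and 54.2 ± 7.01 in BAT, but eWAT and iWAT did not pass the test as different (log2 0.38, SE 0.181, edgeR adjusted p = 0.117).

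With total counts as the only scaling, the median of all genes moved to -0.262 for BAT against eWAT, -0.131 for BAT against iWAT and 0.149 for eWAT against iWAT, and 8 of the 10 genes were then called lower in BAT than in eWAT. Without BAT WT replicate 2, 6 were called lower than in eWAT, Prr32 joining the 5, and 9 lower than in iWAT.

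Compared per kb of exon, which allows genes to be set against each other, the 10 genes spanned a wide range. In WT BAT the level was highest for Tmem45b, at 372 ± 112 CPM per kb and rank 198 of 15866 genes, then for Sncg, at 232 ± 21.8 CPM per kb and rank 312, and for Npr3, at 104 ± 12.6 CPM per kb. Tmem45b and Sncg were near each other, the lowest Tmem45b library (255) being under the highest Sncg library (257). Fads3 followed at 37.2 ± 10 CPM per kb, and Nek6, Slc6a13, Sucnr1, Prrx1 and Prr32 had means between 13.7 and 7.94. Tnc was lowest, at 2.16 ± 0.332 CPM per kb. In WT iWAT Sncg was the highest of the 10, at 1049 ± 47.3 CPM per kb and rank 28 of all genes.

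**Figure D3:**
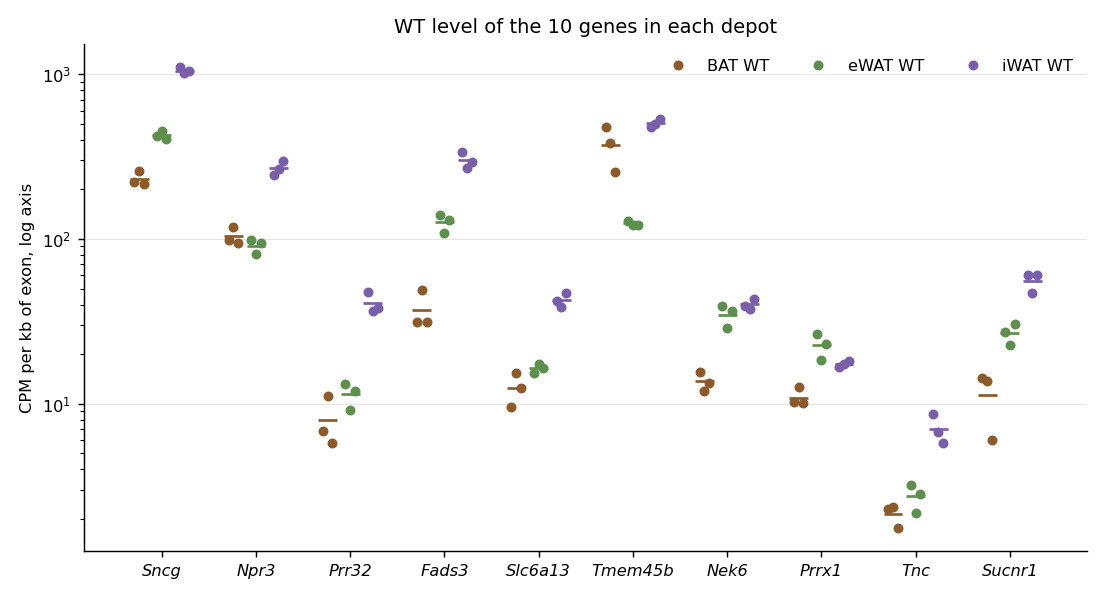
WT level of each of the 10 genes per kb of exon (CPM per kb, log axis) in BAT, eWAT and iWAT, with points for the 3 libraries and lines for their mean. The iWAT mean lies above the BAT mean for each gene, and Tmem45b is the gene whose BAT libraries lie above its eWAT libraries.

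Over the 18 libraries the 10 genes varied together. The Pearson correlations of their log2 CPM in the 45 pairs had a median of 0.932, from 0.179 (Tmem45b with Prrx1) to 0.98 (Sncg with Fads3). The mean of their standardised levels was lowest in C6KO BAT, at -1.86 to -1.669, and ran from -0.517 to -0.191 in WT BAT, -0.112 to 0.093 in WT eWAT, 0.326 to 0.572 in C6KO eWAT and 0.656 to 1.012 in iWAT. Tmem45b (r = 0.69) and Prrx1 (r = 0.797) followed this mean least. The 18 libraries differ in depot and genotype, and the choice used this pattern in part, so these values are descriptions. The part of depot and genotype in the correlations was not tested.

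Outside the 10, the genes whose profile over the 18 libraries was most like that mean were Kcnj14 (r = 0.977), Gm5627 (r = 0.977), Lep (r = 0.975), 1700047G03Rik (r = 0.975) and Klhl13 (r = 0.973). Kcnj14, a potassium channel gene, had 13, 25 and 11 counts in WT BAT and 0 in each C6KO BAT library, at least 17.1-fold lower against a floor of 3 counts over the group. Lep, the gene of the satiety hormone leptin, was at 425 ± 100 CPM in WT BAT and 41.7 ± 20.4 CPM in C6KO BAT, and its mean level was 1365 and 1967 CPM in WT and C6KO eWAT. All 5 were among the genes called lower in C6KO BAT.

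None of the relatives and partners of the 10 genes was called by edgeR for the knockout effect within a depot. Of 71 listed family members, receptors, ligands and enzymes, 54 were tested in BAT, 59 in eWAT and 57 in iWAT, and edgeR called 0 in each depot. Calls over all tested genes were few as well, at 1.07% lower and 0.169% higher in BAT and 0.208% lower and 0.537% higher in eWAT, so a count of 0 is near the share over all genes. At an unadjusted p under 0.05 there were 8, 16 and 10 of them. The share of all tested genes at that threshold is not given here. Nothing is therefore read from such counts, here or for the marker lists below. DESeq2 called 1 in BAT (Elovl6), 4 in eWAT (Abat, Npr2, Pde2a and Zfp423) and 2 in iWAT (Elovl6 and Prrx2). Without iWAT C6KO replicate 3, edgeR called 4 lower and 3 higher of 58 tested in iWAT. Calls over all genes in that run were 951 lower and 327 higher, so nothing is read from this count. Without BAT WT replicate 2, some list medians in BAT changed sign, to 0.32 for natriuretic peptide signalling, -0.06 for the succinate enzymes and 0.09 for the tenascins and their receptors.

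Around Npr3, the guanylyl cyclase receptors that signal for natriuretic peptides were at 105 ± 33.1 CPM in WT and 158 ± 60.7 CPM in C6KO BAT for Npr1 (log2 0.61, SE 0.31, edgeR adjusted p = 0.455) and at 66.6 ± 18.6 and 70.2 ± 1.95 CPM for Npr2. Neither signalling receptor was called, and their difference from Npr3 was not tested. The 10 tested genes of the pathway had a median log2 fold change of -0.05 in BAT. In eWAT, 5 of 9 lay above WT without overlap, as did 11.6% of tested genes, with a median of 0.50 and Npr2 at 0.65 (SE 0.151, edgeR adjusted p = 0.0661). Nppb, the gene of B-type natriuretic peptide, had no reads in BAT or iWAT.

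For Sucnr1, the 7 enzymes that make or use succinate in the citric acid cycle, among them the succinate dehydrogenase subunit Sdha, had log2 fold changes between 0.03 and 0.23 in BAT, all with overlapping groups. Around Slc6a13, the taurine carrier Slc6a6 was at 440 ± 118 CPM in WT and 663 ± 162 CPM in C6KO BAT (log2 0.60, SE 0.249, edgeR adjusted p = 0.341). For Fads3, the adjacent desaturase Fads2 was at 10.6 ± 0.765 and 9.74 ± 1.31 CPM in WT and C6KO BAT (log2 -0.11, SE 0.209). Elovl6, an elongase of long-chain fatty acids, was at 241 ± 78.6 and 487 ± 136 CPM in BAT without overlap (log2 1.04, SE 0.289, edgeR adjusted p = 0.142).

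For Nek6, its close relative Nek7 was at 145 ± 17.3 CPM in WT and 133 ± 10.1 CPM in C6KO BAT (log2 -0.11, SE 0.161), and the upstream kinase gene Nek9 at 203 ± 26.9 and 219 ± 24.2 CPM. For Prrx1, all 7 tested mesenchymal transcription factors had a lower estimate in BAT, with a median of -0.24. Zfp423, a regulator of preadipocyte commitment, was at 51.0 ± 3.52 and 38.0 ± 5.83 CPM without overlap (log2 -0.42, SE 0.167, edgeR adjusted p = 0.328). For Tnc, the 9 tested tenascins and receptors had a median of -0.20, and the Toll-like receptor gene Tlr4 was at 40.2 ± 3.01 and 25.7 ± 2.11 CPM (log2 -0.64, SE 0.154, edgeR adjusted p = 0.0955). Tmem45b's relative Tmem45a was at 2.0 ± 0.721 and 0.949 ± 0.379 CPM and was not called.

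The genes beside the 10 on the chromosome were mostly not called. The nearest tested gene on each side gave 20 neighbours, 555 to 2813717 bases away, with a median log2 fold change of -0.07 in BAT. Only Gm5144, which starts 850 bases from Npr3 on the opposite strand, was called in BAT (log2 -1.76, SE 0.298, edgeR adjusted p = 0.0289), and none was called in eWAT or iWAT. Fads2, 3093 bases from Fads3, and Psmb7, 555 bases from Nek6 (log2 0.03, SE 0.147), were among those not called.

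Markers of other cell types moved in the same libraries. Of the 9 white adipocyte genes, 6 were tested in BAT, with a median log2 fold change of -1.35. Lep was called lower (log2 -3.35, SE 0.411, edgeR adjusted p = 0.0146), while Nnat (log2 -2.08, SE 0.461, edgeR adjusted p = 0.118) and Mest (log2 -2.19, SE 0.591, edgeR adjusted p = 0.207) did not pass. DESeq2 called Lep, Nnat and Mest lower in BAT. The rest of the tested list overlapped between genotypes in BAT. Their log2 fold changes were 0.12 (SE 0.369) for Retn, -0.12 (SE 0.51) for Slc7a10 and -0.61 (SE 0.325) for Hoxc8. The list summed to 634 to 1244 CPM in WT BAT and 125 to 231 CPM in C6KO BAT, and Tcf21, a defining gene of visceral fat, had no reads in BAT. In eWAT all 8 tested genes of the list had a higher estimate, with a median of 0.59 and sums of 2249 to 2621 CPM in WT and 3405 to 4181 CPM in C6KO, and 0 were called by edgeR (5 at an unadjusted p under 0.05, 4 by DESeq2). In iWAT the list had a median of 0.44, with overlapping sums of 7101 to 7142 and 6125 to 8570 CPM. Without BAT WT replicate 2, 3 of the 6 were called lower in BAT, with a median of -0.94. The part of these genes' cells in the values of the 10 genes was not tested.

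The macrophage list moved in BAT as well: 7 of 13 genes were called lower, where 1.07% of tested genes were. Among them were Itgax (log2 -3.17, SE 0.307, edgeR adjusted p = 0.00388) and Gpnmb (log2 -2.65, SE 0.265, edgeR adjusted p = 0.00423). The list had a median of -1.58 and sums of 926 to 1086 CPM in WT and 287 to 454 CPM in C6KO. DESeq2 called 12 of the 13 lower in BAT, where it called 389 lower over all genes. Cd163 was the 1 gene of the list with a higher estimate in C6KO BAT (log2 0.52, SE 0.369, edgeR adjusted p = 0.613). Without BAT WT replicate 2, 9 of the 13 were called lower, with a median of -1.47. The median of the list was -0.50 in eWAT and -1.53 in iWAT, where edgeR called 0 of 13 in both (11 and 12 at an unadjusted p under 0.05, 3 and 7 by DESeq2). Below WT without overlap were 10 of 13 in eWAT, where 11.6% of tested genes were, and 13 of 13 in iWAT, where 12.3% were. Without iWAT C6KO replicate 3, 12 of 13 were called lower there, with a median of -2.22. Calls over all genes in iWAT rose as well, from 3 lower and 1 higher to 951 and 327. Of the 14 progenitor and fibroblast genes, Lum (log2 -1.14, SE 0.185, edgeR adjusted p = 0.0249) and Col3a1 (log2 -1.70, SE 0.216, edgeR adjusted p = 0.00972) were called lower in BAT, and the sums were 1716 to 2452 CPM in WT and 1197 to 1579 CPM in C6KO. The median of the progenitor list in BAT was -0.48, and -0.15 without WT replicate 2, with 2 genes called in both cases. DESeq2 called 3 of the list lower in BAT (Col1a1, Col3a1 and Lum). The part of these cells in the fall of the 10 genes was not tested.

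No brown adipocyte gene of 14 was called lower in BAT, and Kcnk3 (log2 1.23, SE 0.231, edgeR adjusted p = 0.0421) and Slc27a2 (log2 1.59, SE 0.238, edgeR adjusted p = 0.0168) were called higher. DESeq2 called 3 of the list higher in BAT (Elovl3, Kcnk3 and Slc27a2) and 0 lower. The log2 fold change of Ucp1 was -0.14 (SE 0.335, edgeR adjusted p = 0.89). The 10 genes common to adipocytes of any depot had a median of 0.22 in BAT with none called by edgeR (2 at an unadjusted p under 0.05, 2 by DESeq2), and in eWAT a median of 0.57 with Plin1 and Lipe called higher. The 7 skeletal muscle genes had a median of -1.72 in BAT and of 2.31 without WT replicate 2, with none called in either case (0 at an unadjusted p under 0.05 and 0 by DESeq2 with all libraries). The median of the 10 genes was -1.84 without that library. In BAT the endothelial genes had a median of 0.20 and the Schwann and nerve genes 0.66 (0.12 and 0.91 without WT replicate 2), with none called by edgeR (2 and 1 at an unadjusted p under 0.05, 1 and 0 by DESeq2). In the same tissue 1 mesothelial gene, Lrrn4, was called higher, and lymphocyte genes summed to 58.8 CPM in WT replicate 2 and to 2.88 to 6.72 CPM in the other libraries. Hepatocyte genes summed to at most 4.76 CPM in BAT, and in eWAT to 6.29 to 11.2 CPM in WT and 22.7 to 69.3 CPM in C6KO, with Ttr called higher. Over all marker lists, edgeR called 0 of 81 tested genes in iWAT (34 at an unadjusted p under 0.05, 11 lower and 2 higher by DESeq2).

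**Figure D4:**
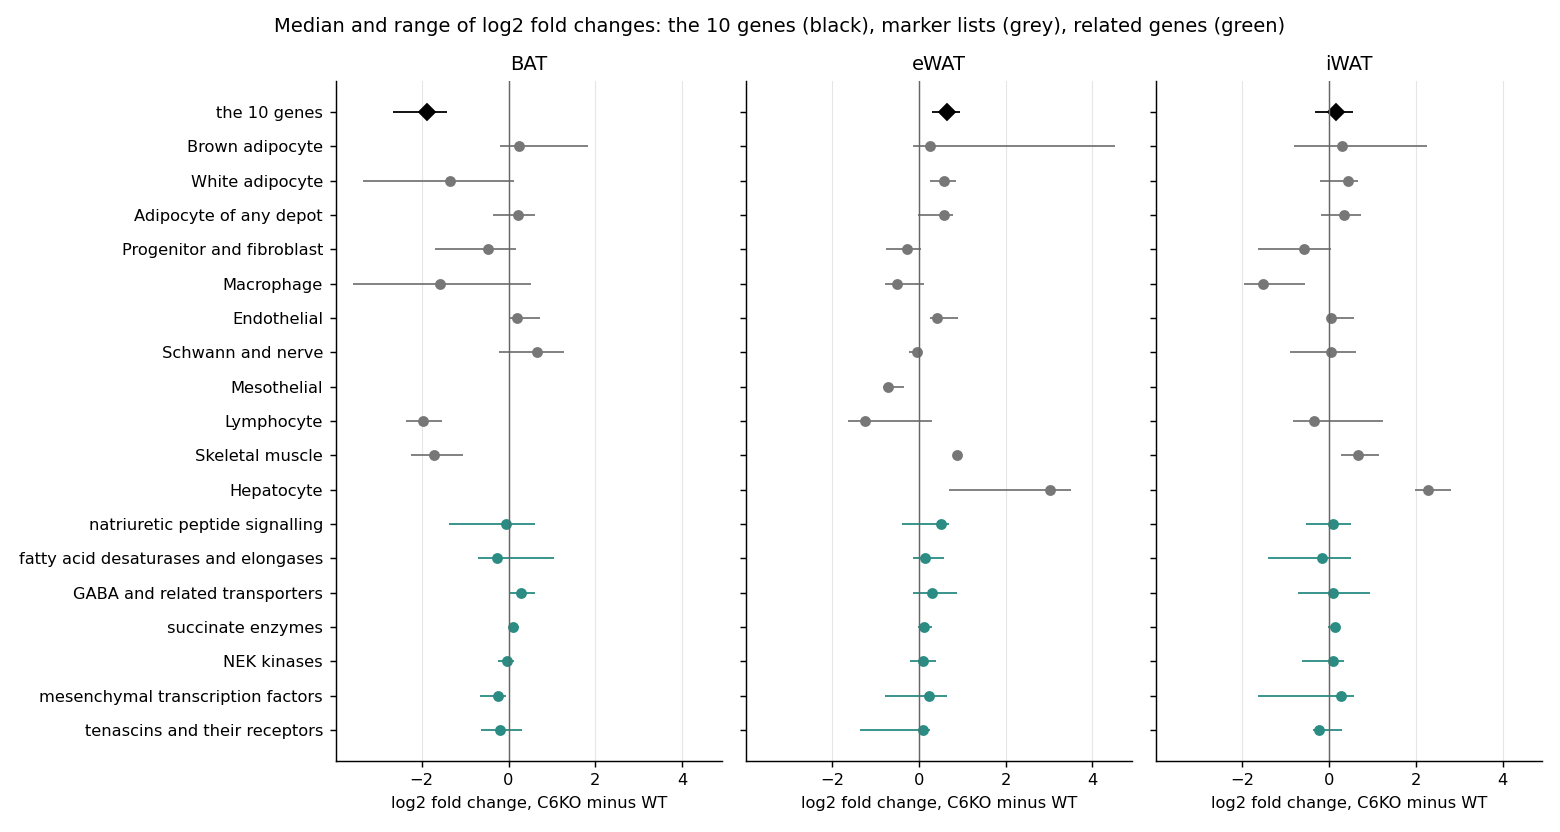
Median (symbol) and range (line) of the log2 fold changes of C6KO over WT for the 10 genes (black), cell type marker lists (grey) and 7 lists of related genes (green) in each depot, for lists with at least 2 tested genes. The 10 genes lie at -1.87 in BAT, 0.65 in eWAT and 0.15 in iWAT, the white adipocyte list at -1.35, 0.59 and 0.44, and the macrophage list at -1.58, -0.50 and -1.53.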

How the data were processed

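The authors aligned reads with STAR to mm10 and counted exonic reads with HOMER, each gene represented by 1 transcript. The deposited values are raw counts, in 1 table per depot with 6 libraries each. Tool versions and the strand setting are not given in the sources used here. The transcript kept for a gene differed between tables for 2619 genes but for none of the 10. Counts were fitted per depot with edgeR 4.0.16 in R 4.3.3 (TMM, filterByExpr, robust quasi-likelihood test, Benjamini-Hochberg adjustment), and all 18 libraries together for differences between depots. DESeq2 1.42.0, other scalings, no filter, a replicate block and leaving out each library were alternatives, and the script was tested on simulated counts. CPM used TMM over 18 libraries. Named genes were the 10 genes, Casp6, listed partners and markers, the nearest tested neighbours and the 5 genes most correlated with the mean profile. The 10 genes and the lists were chosen with earlier results of these data known. Values of 1 of the partner lists are not reported here.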

Additional observations from a re-analysis of the deposited data

Results flagged for a closer look

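The knockout effect differed between depots by an interaction test for the genes below, on the log2 scale. The 10 genes were chosen for this difference, so their values are descriptions, and both comparisons subtract the same BAT libraries. For eWAT minus BAT the values were 3.18 for Sncg, 3.12 for Npr3, 3.62 for Prr32, 2.44 for Fads3, 2.39 for Slc6a13, 2.35 for Tmem45b, 2.17 for Nek6, 1.88 for Prrx1, 2.67 for Tnc and 3.02 for Sucnr1. For iWAT minus BAT they were 2.81 for Sncg, 2.43 for Npr3, 2.76 for Prr32, 1.94 for Fads3, 1.87 for Slc6a13, 1.93 for Tmem45b, 2.03 for Nek6 and 2.78 for Sucnr1.

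Among the other genes named here, Lep differed by 3.87 (SE 0.493) in eWAT and 3.14 (SE 0.487) in iWAT against BAT. Nnat differed by 2.81 and 2.48 in the same comparisons, Gm5144 by 2.64 and 1.92 and Gm5627 by 4.48 and 3.56. Gm5627, 1700047G03Rik, Klhl13, Kcnj14 and Lep were named for a profile like that of the 10 genes, so their values are descriptions too. Kcnj14 also passed for eWAT against BAT, with no fold given because its C6KO BAT libraries held 0 counts. In eWAT against BAT alone, the other values that passed were 3.04 for Mest, 1.08 for Zfp423, 4.48 for 1700047G03Rik and 1.69 for Klhl13. Elovl6 went the other way in iWAT against BAT, at -2.19 (SE 0.409, edgeR adjusted p = 0.0396). No formal outlier test was run on groups of 3 libraries.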

How the results depend on the processing

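No called value of the 10 genes changed direction under any alternative run. The count of the 10 genes called lower in BAT was 10, 7 with the replicate block, and 3 to 9 with single libraries left out. In eWAT, 2 were called higher, and 0 with total counts, 5 without a filter, 8 by DESeq2, 5 with the replicate block, 0 in one fit of 18 libraries and 0 to 3 with single libraries left out. The WT count for BAT below eWAT was 5, and 8 with total counts. The iWAT minus BAT count was 8, and 7 to 9 with single libraries left out. Among partner genes, DESeq2 called 1 higher in BAT, 4 higher in eWAT and 2 lower in iWAT, the replicate block 4 higher in eWAT, and leaving out libraries gave 0 to 4 higher in eWAT, 0 to 4 lower in iWAT and 0 to 3 higher in iWAT. Among markers, with DESeq2 and then single libraries left out, BAT had 10 lower (19; 4 to 14) and 3 higher (7; 0 to 4), eWAT 0 lower (4; 0 to 2) and 4 higher (16; 0 to 9), and iWAT 0 lower (11; 0 to 19) and 0 higher (2; 0 to 5). The cause of these moves was not tested. With total counts, the share of called genes that were higher moved from 72.1% to 58.2% in eWAT, from 51.4% to 36.7% for WT BAT against eWAT, from 51.8% to 41.2% for BAT against iWAT and from 49.9% to 63.6% for eWAT against iWAT. Over all genes, lower and higher calls were 145 and 23 in BAT (389 and 156 by DESeq2), 31 and 80 in eWAT (189 and 429) and 3 and 1 in iWAT (505 and 169). They were 93 and 254 in eWAT without C6KO replicate 2, and 951 and 327 in iWAT without C6KO replicate 3. The labels do not say whether a replicate number marks the same animal, and deviations from means of 3 libraries cannot decide it. Same-numbered WT and C6KO deviations correlated at -0.603 to -0.244 in BAT, -0.104 to 0.161 in eWAT and 0.022 to 0.037 in iWAT. Same-numbered libraries of 1 genotype in different depots correlated at -0.066 to 0.219. The latter were positive in all 3 numbers for WT iWAT with BAT or eWAT and C6KO iWAT with BAT. No pair of groups was over 0.1 in all 3. With the replicate block, all-gene calls were 101 and 12 in BAT, 116 and 298 in eWAT and 54 and 8 in iWAT. In BAT, Prr32 had few reads and the least precise knockout effect of the 10 (SE 0.468). Sucnr1 had the largest SE in eWAT minus BAT (0.435) and in iWAT minus BAT (0.433).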
